A study of Mus musculus with 22 samples.

Results

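Ribosome-bound RNA of cortical astrocytes was compared with that of cortical microglia in 6 libraries, 3 of each cell type, out of 22 in the series. All 6 came from the cortex of 6-week-old mice that carried 1 floxed Rpl22 allele, which Cre recombination turns into an HA-tagged ribosomal protein (RiboTag), so that polysomes of Cre-expressing cells can be pulled down with an anti-HA antibody. The astrocyte mice were Rpl22 Fl/+, Aldh1-cre, in which a tamoxifen-inducible Cre is driven by Aldh1l1 regulatory sequence, and the microglia mice were Rpl22 Fl/+, Tmem119-cre, in which a tamoxifen-inducible Cre was placed at the Tmem119 gene. Both groups were thus heterozygous for the tagged allele, and each held 1 female (replicate 1) and 2 males (replicates 2 and 3). The paper reports that its inducible Cre lines received tamoxifen by oral gavage. By the line names in the paper, the Aldh1l1 driver had a background mixed with FVB and the Tmem119 driver did not. Driver line background therefore also went with cell type. The members were chosen by their labels alone, as the 3 astrocyte libraries of sequencing batch 1 and the 3 microglia libraries of batch 2. Batch and cell type cannot be told apart in these 6 libraries. Astrocyte replicate 2 was sequenced again in batch 2, and that library was used as a check.

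Astrocytes are the glia that take up transmitter and potassium from the extracellular space, contact blood vessels with their endfeet, and supply neurons with lipid and with precursors of glutamate. Microglia are the resident macrophages of the brain. They arise from yolk sac progenitors, depend on signalling through the receptor Csf1r and on TGF-beta, and clear debris and synapses through complement and engulfment receptors. The 2 types signal to each other through secreted ligands and lipoproteins, and many of these genes were measured here.

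The levels below are in TPM, a transcript abundance corrected for transcript length that sums to the same total in each library. The tests used estimated read counts summed per gene. Those counts are not corrected for transcript length, so a fold can differ from the ratio of the TPM beside it. A gene was called when its level differed at least 2-fold with an adjusted p of at most 0.05 (edgeR quasi-likelihood test, Benjamini-Hochberg adjustment over 21676 genes tested). Log2 folds are microglia over astrocytes, so positive values are higher in microglia. The study treats the replicates as biological, but the labels do not say how many mice each library held, and the p-values measure the spread between these libraries.

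Aldh1l1, the folate enzyme whose regulatory sequence drives the astrocyte Cre, lies on chromosome 6 (GRCm38, chr6:90486427-90600203, plus strand) and was at 352, 333 and 361 TPM in astrocytes and at 9.19, 9.3 and 10.3 TPM in microglia (log2 fold -5.4, SE 0.11, adjusted p = 6.4e-11). Tmem119, a microglial membrane protein of chromosome 5 (chr5:113793729-113800516, minus strand), was at 5.28, 5.16 and 3.55 TPM in the astrocyte libraries against 1100.5, 1173 and 1118 TPM in the microglia libraries (log2 fold 7.91, SE 0.14, adjusted p = 2.6e-11). The 2 groups were far apart for both genes, and the second sequencing of astrocyte replicate 2 gave 331 TPM of Aldh1l1 and 5.71 TPM of Tmem119. The Cre of the microglia mice sits at Tmem119 itself, and mice without the insertion were not analysed here.

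Over all genes tested, 4764 (22%) were called higher in astrocytes and 4801 (22.1%) higher in microglia, 44.1% in either direction, and the median log2 fold was 0.03. Another 7014 genes (32.4%) had a 95% interval that lay wholly within 2-fold. At 4-fold or more, 2185 genes (10.1%) were higher in astrocytes and 2322 (10.7%) in microglia. The groups did not overlap in TPM for 16014 genes (73.9%), so a lack of overlap was the common case. Of the calls higher in microglia, 3939 (82.0%) also had a higher mean TPM in microglia than in any neuronal type of the series, against 2164 (45.4%) of the calls higher in astrocytes. At 4-fold or more these shares were 93.7% and 66.8%. A gene higher in astrocytes than in microglia was therefore often higher still in a neuronal type, and the level in neurons is given below for several genes where it exceeded that in both glial types.

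All 34 genes of a list of astrocyte identity were called higher in astrocytes, against 22% of all genes, with a median log2 fold of -5.44. All 34 genes of a list of microglia identity were called higher in microglia, against 22.1% of all genes, with a median of 8.06. Both lists, like the other lists below, were chosen with earlier results of these data known, so the counts are a description. The astrocyte list summed to 41634.4, 38392.5 and 40041.6 TPM in astrocytes and to 2974.7, 3077.7 and 3291.2 TPM in microglia. The microglia list summed to 299.6, 278.4 and 235.9 TPM in astrocytes and to 71302.0, 73849.9 and 69380.1 TPM in microglia. Astrocyte markers thus kept a larger residual level in microglia libraries than microglia markers did in astrocyte libraries. Glul, glutamine synthetase, carried most of that residual, at 2018, 2209 and 2211 TPM in microglia and at 9469, 8753 and 8884 TPM in astrocytes (log2 fold -2.12, SE 0.08, adjusted p = 2.9e-09). The glycolytic enzyme Aldoc was at 7961, 6829.6 and 7142 TPM in astrocytes and at 112, 109 and 112 TPM in microglia, a 71.6-fold difference. Slc1a2, the main glutamate transporter of forebrain astrocytes, was at 3487, 3089 and 3322 TPM in the astrocyte libraries against 36.7, 48.4 and 53.8 TPM in the microglia libraries, 74.1-fold apart. Among the microglia markers with the highest levels, the lysosomal protease Ctss was at 9049, 9352 and 8393 TPM in microglia and at 21.6, 20.3 and 17 TPM in astrocytes (log2 fold 8.75, SE 0.12, adjusted p = 1.3e-11).

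**Figure D1:**
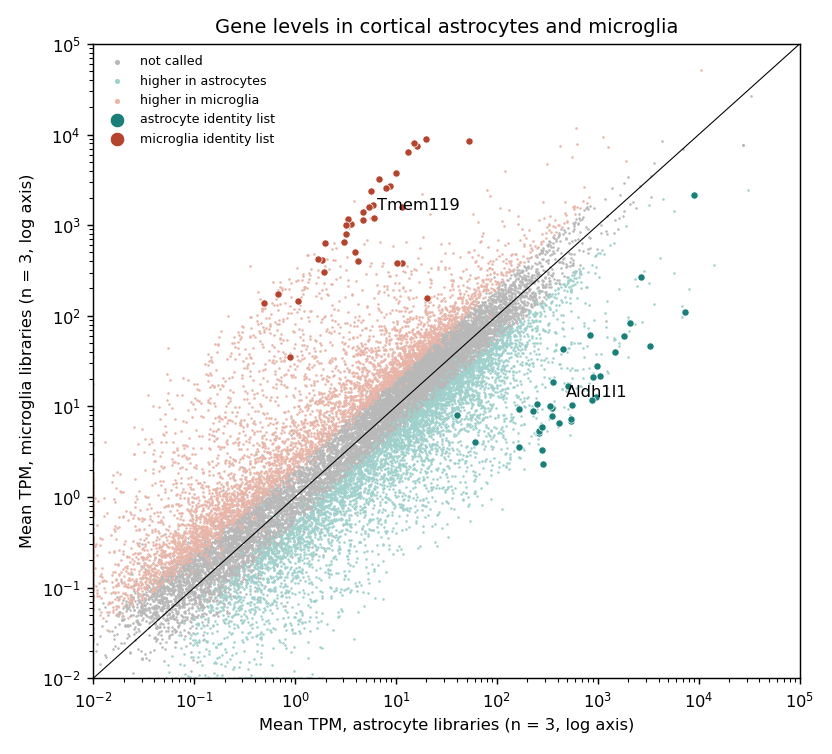
Mean TPM of each tested gene in the 3 astrocyte libraries (x axis, log scale) against the 3 microglia libraries (y axis, log scale), with calls in pale colours and the 34 genes of each identity list as large points. The astrocyte identity genes all lie below the line of equal level and the microglia identity genes all lie above it.

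The libraries held 61690065 to 71440915 estimated counts in astrocytes and 50308142 to 70663176 in microglia, so that counting error was small for all but the rarest transcripts. Correlations of log2 levels across genes, which are not independent replicates, were at least 0.987 within a cell type and at most 0.871 between them, and the 2 sequencings of astrocyte replicate 2 correlated at 0.999. Rpl22, the gene that carries the tag, was at 297 to 308 TPM in astrocytes and 466 to 486 TPM in microglia, but its summed level does not tell the tagged from the untagged allele. On the count scale its log2 fold was 0.10. Neuron markers summed to 2060 to 2599 TPM in astrocytes and to 1151 to 1341 TPM in microglia, far below the 18360 to 18621 TPM of layer V neurons. Of 14 neuron markers, 9 were called higher in astrocytes and none in microglia. The shares of all genes called in these directions were 22% and 22.1%, to be set beside each marker count here. Oligodendrocyte markers were at 1085 to 1323 TPM and 604 to 698 TPM, with 4 of 11 called higher in astrocytes, a count that became 7 with the batch 2 libraries alone. Endothelial and mural markers ran the other way, at 158 to 179 TPM in astrocytes and 554 to 768 TPM in microglia. Of 13 such markers 12 were called higher in microglia and 1, Pdgfrb, in astrocytes. Border macrophage markers summed to 3.28 to 4.97 TPM in astrocytes and 10.6 to 14.5 TPM in microglia, and 3 of 7 (Mrc1, Cbr2 and Lyve1) were called higher in microglia and none in astrocytes. Lyve1 was under 1 TPM in every library, and its log2 fold of 1.23 turned to -0.59 with the batch 2 libraries alone. The libraries were anti-HA pull-downs of tagged ribosomes, and how transcripts of other cell types came into them was not tested. Fewer cells of a type and less RNA per cell cannot be told apart.

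Some libraries stood apart in genes of other tissues. Ttr, a carrier protein of the choroid plexus, was at 3635, 4.99 and 11.6 TPM in the astrocyte libraries, so that replicate 1 alone held it at a high level, and it was not called (log2 fold -3.77, SE 1.85, adjusted p = 0.091). Without that library its log2 fold turned to 3.25. Hemoglobin transcripts were higher in astrocytes, with Hbb-bs at 2521, 5238 and 4747 TPM in astrocytes and at 295, 372 and 622 TPM in microglia. Osteocalcin, Bglap, was at 0.464, 0.465 and 0.132 TPM in the astrocyte libraries against 404, 159.7 and 490.0 TPM in the microglia libraries, and collagen Col1a1 was at 142, 58.6 and 308 TPM in microglia and at 2.77, 4.24 and 3.91 TPM in astrocytes. Both transcripts were higher in every microglia library than in any astrocyte library, and microglia replicate 2 had the least of both. Col1a1 is made by fibroblasts as well, and of 8 markers of fibroblasts, ependyma and choroid plexus the 4 of fibroblasts (Col1a1, Col1a2, Dcn and Lum) were called higher in microglia, while the ependymal markers Foxj1 and Tmem212 were called higher in astrocytes. Dmp1, a bone gene, ran the other way, at 45.8, 39.2 and 40.8 TPM in astrocytes and at 0.729, 0.662 and 5.06 TPM in microglia. Of 8 tested markers of blood leukocytes 4, all of neutrophils (S100a8, S100a9, Ngp and Camp), were called higher in astrocytes and 3 of other leukocytes in microglia. Beside these counts and those of the fibroblast, ependymal and choroid markers stand 22% and 22.1% of all genes. The neutrophil gene S100a9 was highest in astrocyte replicate 2 (7.05, 20 and 2.56 TPM in astrocytes against 0.246, 0.968 and 0.351 TPM in microglia). The lists of erythroid, bone cell and choroid plexus genes were drawn up after these values were seen. What part such transcripts had in the results below was not tested.

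**Figure D2:**
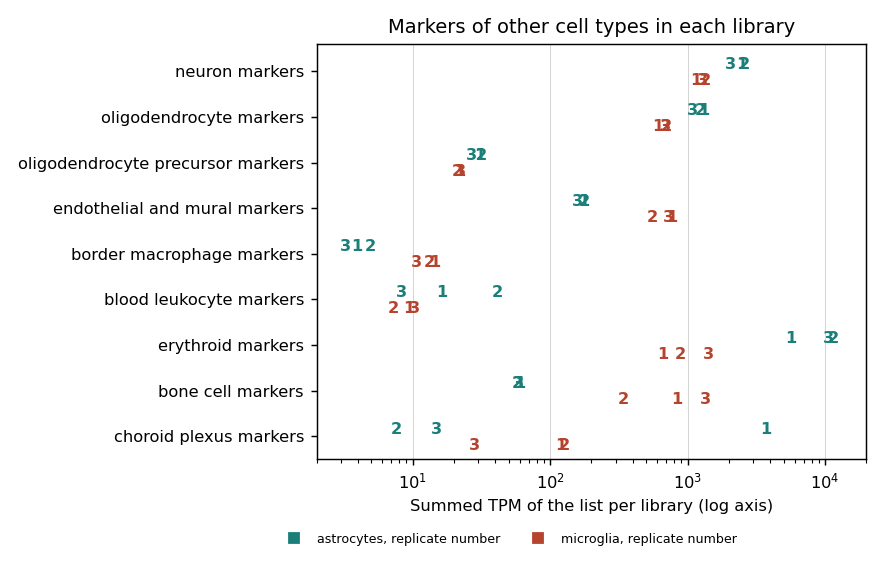
Summed TPM of marker lists of other cell types in each library (x axis, log scale), with the replicate number as the symbol. Choroid plexus markers stand at 3683.8 TPM in astrocyte replicate 1 against 7.68 and 15 TPM in the other two, and bone cell markers stand at 339.6 to 1357.3 TPM in microglia.

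Among called protein-coding genes of at least 20 TPM whose groups did not overlap, the 10 with the largest fold toward astrocytes were Gpc5, Chrdl1, Luzp2, Car8, Hsd11b1, Gabrg1, Ttpa, Gpr37l1, Cldn10 and Fam181a. These were picked for their folds, and their values are a description. Gpc5, a cell surface heparan sulfate proteoglycan, was at 283, 269 and 297 TPM in the astrocyte libraries against 2.35, 2.29 and 2.22 TPM in the microglia libraries (log2 fold -7.07). Chrdl1, a secreted antagonist of bone morphogenetic proteins that astrocytes release, was at 0.542, 0.755 and 0.923 TPM in microglia and at 115, 109 and 109 TPM in astrocytes (log2 fold -7.06). Gpr37l1, an orphan receptor, had the highest level of the 10, at 1259, 1136 and 1190.0 TPM in astrocytes and at 12.7, 13.2 and 15.4 TPM in microglia. The 10 toward microglia were Bglap, Rgs1, C1qb, Fcgr3, Selplg, C1qc, C1qa, Tagap, Ctss and Fcrls. Apart from Bglap, a bone gene, they are genes of phagocytes and lymphoid signalling. Fcgr3, a low-affinity receptor for immunoglobulin G, was at 4.23, 3.71 and 3.65 TPM in the astrocyte libraries against 1849, 1893 and 1821 TPM in the microglia libraries (log2 fold 8.84), and Selplg, the ligand of P-selectin, was at 3188, 3293 and 3109.9 TPM in microglia and at 8.27, 6.59 and 5.48 TPM in astrocytes (log2 fold 8.82). Rgs1, a regulator of G protein signalling, had 3 estimated counts in all astrocyte libraries together and 3010 in the microglia libraries. That is a ratio of 1126.5 with an exact 95% counting interval of 385.1 to 5465.4, and its TPM in microglia was 50.3, 49.8 and 33.4.

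Transcription factors followed the 2 lineages closely. Of 21 factors of the astrocyte lineage 20 were called higher in astrocytes and none in microglia, against 22% and 22.1% of all genes. Of 18 of the microglia lineage 16 were called higher in microglia and none in astrocytes. Sox2, a factor of neural stem cells that astrocytes retain, was at 257, 278 and 245 TPM in astrocytes and at 6.18, 5.68 and 6.15 TPM in microglia (log2 fold -5.47, SE 0.08, adjusted p = 1.6e-11). Lhx2, a LIM homeodomain factor of the forebrain, was at 264, 232 and 230.3 TPM in the astrocyte libraries against 6.62, 8.48 and 7.43 TPM in the microglia libraries (log2 fold -5.28). The inhibitors of basic helix-loop-helix factors Id3 and Id4 were 9.31-fold and 26.5-fold higher in astrocytes, Id3 at 33.9, 26.1 and 37.5 TPM in microglia and at 273, 290.4 and 257 TPM in astrocytes. Spi1, which encodes PU.1, the factor that directs macrophage and microglia development, was at 2.33, 2.15 and 1.65 TPM in astrocytes and at 444, 429 and 404 TPM in microglia (log2 fold 8.08, SE 0.11, adjusted p = 1.3e-11). The interferon regulatory factor Irf5 was at 1.89, 1.15 and 0.902 TPM in the astrocyte libraries against 209, 208 and 198 TPM in the microglia libraries (log2 fold 7.51). Cebpa, a myeloid C/EBP factor, was at 318, 320.3 and 266 TPM in microglia and at 14, 11.5 and 11.6 TPM in astrocytes. It was 23.9-fold higher in microglia but was still at 11.5 TPM or more in every astrocyte library. The factor not called with the highest level was Bhlhe41, a circadian repressor, at 31.2, 38.2 and 32.6 TPM in astrocytes and 48.8, 42.9 and 38 TPM in microglia (log2 fold 0.39, 95% interval 0.14 to 0.63). Sall3 missed the call by its fold (log2 fold 0.98, SE 0.15, adjusted p = 0.00022), and so did Hes1 (log2 fold -0.76, SE 0.11, adjusted p = 0.00017), both named after their values were seen.

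**Figure D3:**
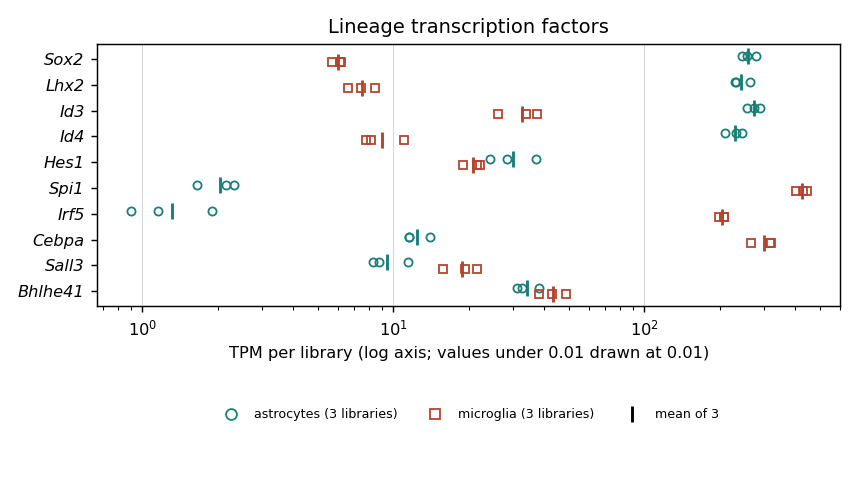
TPM of 10 lineage transcription factors in each of the 6 libraries (x axis, log scale), with open circles for astrocytes, open squares for microglia and a bar at each mean. The means differ by more than 20-fold for Sox2, Lhx2, Id4, Spi1, Irf5 and Cebpa, and the libraries overlap for Bhlhe41.

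The start sites of the genes called at 4-fold or more were searched for 9 short motifs in RefSeq promoter windows of 300 bases (250 before to 50 after the start, GRCm38.p6, both strands), with the calls already known. A window was found for 1365 of the 2322 genes higher in microglia and 1476 of the 2185 higher in astrocytes. One motif was GAGGAAGT, a core of the sites that PU.1 and other ETS factors recognise. It was in 133 of 1719 windows (7.74%) of genes at least 4-fold higher in microglia, in 37 of 1920 windows (1.93%) of genes at least 4-fold higher in astrocytes, in 2.49% of windows of tested genes that were not called, and in 3.2% of all 32851 windows. The motif extended by 1 base, AGAGGAAGT, which overlaps it, was in 3.72% and 0.625% of the windows of the microglia and astrocyte sets and in 1.0% of all windows. The shorter AGAGGAA was in 16.6% and 9.17%, against 10.4% of all windows. In windows of tested genes that were not called, AGAGGAAGT was in 0.775% and AGAGGAA in 8.84%. Motifs of other families differed by fewer percentage points: TTGGCA, part of the sites of NFI factors, was in 12.6% and 15.3% (14.1% of all windows), the SOX motif ACAATGG in 2.27% and 2.4% (3.66% of all), the TATA box TATAAA in 11.6% and 10.3% (13.6% of all), and the sterol regulatory element TCACNCCAC in 1.34% and 1.56% (1.24% of all). In windows of tested genes that were not called, TTGGCA was in 11.2%, ACAATGG in 2.41%, TATAAA in 8.26% and TCACNCCAC in 0.922%. TATAAA was thus less frequent there than in either called set, although all windows together held more of it. The other 2, the full palindromic site of NFI factors and the site of MEF2 factors, were in 0.0365% and 0.164% of all windows and in fewer than 1% of every set. To show where the letters lie, the windows are printed for the 4 genes with the highest TPM in microglia among those at least 4-fold higher there and holding GAGGAAGT, leaving out 1 chromosome. That rule was set after the matches were seen, and it named Pld4, an endolysosomal exonuclease, and Cyth4, an exchange factor for ARF proteins, beside Ctss and C1qc. The windows run 5′ to 3′ on the strand of the gene, with the motif or its reverse complement in capitals.
Ctss (chr3:95526536-95526835, plus strand): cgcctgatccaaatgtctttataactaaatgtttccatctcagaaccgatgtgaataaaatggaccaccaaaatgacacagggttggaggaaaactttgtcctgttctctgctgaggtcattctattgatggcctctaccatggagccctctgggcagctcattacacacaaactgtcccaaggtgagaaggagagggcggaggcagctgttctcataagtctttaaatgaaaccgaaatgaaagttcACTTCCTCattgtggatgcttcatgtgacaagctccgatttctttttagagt
C1qc (chr4:136892865-136893164, minus strand): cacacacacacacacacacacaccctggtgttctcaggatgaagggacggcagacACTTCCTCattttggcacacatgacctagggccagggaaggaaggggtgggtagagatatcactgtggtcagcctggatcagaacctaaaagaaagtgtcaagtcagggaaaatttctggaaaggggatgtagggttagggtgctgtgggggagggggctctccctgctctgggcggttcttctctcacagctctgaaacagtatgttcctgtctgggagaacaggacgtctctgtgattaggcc
Pld4 (chr12:112760405-112760704, plus strand): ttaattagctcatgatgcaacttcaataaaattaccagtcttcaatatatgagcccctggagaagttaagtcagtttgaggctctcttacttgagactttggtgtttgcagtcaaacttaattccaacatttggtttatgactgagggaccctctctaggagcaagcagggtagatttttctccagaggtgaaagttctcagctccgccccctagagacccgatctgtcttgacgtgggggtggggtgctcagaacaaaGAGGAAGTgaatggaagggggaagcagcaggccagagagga
Cyth4 (chr15:78596797-78597096, plus strand): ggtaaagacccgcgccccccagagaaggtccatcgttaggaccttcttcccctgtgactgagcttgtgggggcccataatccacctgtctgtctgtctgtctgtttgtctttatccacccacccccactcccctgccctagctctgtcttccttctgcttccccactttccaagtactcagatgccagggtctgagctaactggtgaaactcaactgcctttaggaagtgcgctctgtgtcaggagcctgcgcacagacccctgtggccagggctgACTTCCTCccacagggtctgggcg
In Ctss the match begins 2 bases before the start site, in C1qc 195 bases before it, in Pld4 9 bases after it and in Cyth4 26 bases after it. Pld4 was at 2.89, 2.48 and 1.91 TPM in astrocytes and at 659, 654 and 611 TPM in microglia (log2 fold 8.21) and Cyth4 was at 3.45, 3.3 and 3 TPM in the astrocyte libraries against 455, 452 and 440.4 TPM in the microglia libraries (log2 fold 7.29). A match of letters does not show that a factor binds there.

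Genes of transmitter uptake were mostly higher in astrocytes, where 22% of all genes were called higher. Of 16 genes of glutamate, GABA and amino acid uptake and recycling 13 were called higher in astrocytes and none in microglia, with a median log2 fold of -3.36, and of 8 genes of serine and glycine synthesis 6 were called higher in astrocytes and none in microglia. Besides Glul and Slc1a2, the glutamate transporter Slc1a3 was at 73.3, 83.8 and 91.2 TPM in microglia and at 2070.4, 2075 and 2158 TPM in astrocytes (log2 fold -4.75, SE 0.10, adjusted p = 1e-10). Glud1, glutamate dehydrogenase, was at 1283, 1201 and 1225 TPM in astrocytes and at 148, 148 and 139 TPM in microglia (log2 fold -3.11). The microglia libraries thus kept a clear level of it, and what part came from microglia was not tested. The mitochondrial aspartate aminotransferase Got2 was nearly level, at 55.1, 57.9 and 51.4 TPM in astrocytes and 51.3, 50.7 and 51.4 TPM in microglia (log2 fold -0.18, 95% interval -0.32 to -0.05), and the inhibitory interneurons of the series were above both at 364 TPM.

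Genes of ion transport were more often higher in astrocytes. Of 21 channels, pumps and junction proteins 12 were called higher in astrocytes, against 22% of all genes, and 5 in microglia, a share near the 22.1% of all genes. Atp1b2, a beta subunit of the sodium pump, was at 1859, 1746 and 1887 TPM in the astrocyte libraries against 59.7, 55.7 and 62 TPM in the microglia libraries (log2 fold -5.03, SE 0.09, adjusted p = 2.6e-11). Gja1, which encodes the gap junction protein connexin 43, was at 20.5, 19.9 and 25.2 TPM in microglia and at 1003, 1104 and 1054 TPM in astrocytes, and Mlc1, a membrane protein of astrocyte endfeet, was at 860.4, 842 and 897 TPM in astrocytes and at 10.8, 11.6 and 12.4 TPM in microglia. Their log2 folds were -5.65 and -6.28. Channels were among the genes higher in microglia. The voltage-gated proton channel Hvcn1 was at 1.06, 1.29 and 1.02 TPM in the astrocyte libraries against 129.7, 133 and 128 TPM in the microglia libraries (log2 fold 6.75, SE 0.08, adjusted p = 1.2e-11). The 2-pore potassium channel Kcnk6 was at 97.6, 127 and 128 TPM in microglia and at 0.626, 0.453 and 0.362 TPM in astrocytes, 236-fold apart, and Kcnk13, which carries the tonic potassium current of microglia, was at 1.16, 1.36 and 1.28 TPM in astrocytes and at 17.3, 17.3 and 16 TPM in microglia, 12.7-fold apart.

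P2 receptors for nucleotides were mostly higher in microglia, and the ectonucleotidases Entpd1 and Entpd2 ran in opposite directions. Of 9 P2 receptors 6 were called higher in microglia and 1 in astrocytes, beside 22.1% and 22% of all genes. P2ry12, the receptor for ADP through which microglial processes find damaged cells, was at 12.3, 12.5 and 9.47 TPM in the astrocyte libraries against 1592, 1690.0 and 1490.2 TPM in the microglia libraries (log2 fold 6.83, SE 0.15, adjusted p = 8.9e-11). P2ry13 was at 427, 439 and 376 TPM in microglia and at 1.92, 2.16 and 1.49 TPM in astrocytes and P2ry6, a receptor for UDP, was at 0.81, 0.639 and 0.575 TPM in astrocytes and at 171, 180.2 and 167 TPM in microglia, with log2 folds of 7.76 and 8.2. Of 11 ectonucleotidases, adenosine receptors and transporters 6 were called higher in astrocytes and 3 in microglia, beside 22% and 22.1% of all genes. Entpd1 and Entpd2 both cleave extracellular nucleotides. Entpd1 was at 10.6, 9.43 and 10.4 TPM in the astrocyte libraries against 382, 380.1 and 393 TPM in the microglia libraries (log2 fold 5.7), whereas Entpd2 was at 1.65, 2 and 1.58 TPM in microglia and at 88, 84.3 and 87.3 TPM in astrocytes (log2 fold -5.69). Adk, adenosine kinase, was at 311, 290.3 and 303 TPM in astrocytes and at 16.7, 15.8 and 16.5 TPM in microglia (log2 fold -4.28, SE 0.08, adjusted p = 4.1e-11). The adenosine receptor Adora1 was 3.98-fold higher in astrocytes than in microglia but was at 252 TPM in cerebellar granule cells. Enpp2, which makes lysophosphatidic acid and is also a gene of the choroid plexus, was at 304, 57.4 and 53.8 TPM in astrocytes and 43, 39.5 and 35 TPM in microglia. Its call rested on astrocyte replicate 1, the library with high Ttr: without that library its log2 fold was -0.60 and with the batch 2 libraries alone -0.64, against -1.86 with all 6 libraries (adjusted p = 0.014), and it was not called in either. Without microglia replicate 3 it was not called as well, at a log2 fold of -1.74.

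Most complement components were higher in microglia. Of 12 components 11 were tested, and 9 were called higher in microglia, 1 in astrocytes and 1 in neither. Of all genes 22.1% were called higher in microglia and 22% in astrocytes. The 3 chains of C1q, which starts the classical pathway, lie next to each other on chromosome 4 between positions 136880129 and 136898803 (GRCm38, minus strand). C1qa was at 17.9, 17.9 and 12.5 TPM in the astrocyte libraries against 7306, 7724 and 7393 TPM in the microglia libraries (log2 fold 8.79, SE 0.15, adjusted p = 2.5e-11), C1qb was at 7989, 8304 and 8182 TPM in microglia and at 16.4, 16.3 and 12.2 TPM in astrocytes (log2 fold 9.0, SE 0.13, adjusted p = 1.5e-11) and C1qc was at 13.7, 15 and 10.9 TPM in astrocytes and at 6367, 6563 and 6313 TPM in microglia (log2 fold 8.82, SE 0.14, adjusted p = 1.8e-11). The 3 chains differed by nearly the same fold, and the groups were far apart for each. C4b, the next component of the classical pathway, ran the other way, at 22.1, 20.5 and 23.2 TPM in the astrocyte libraries against 10.9, 7.45 and 11.1 TPM in the microglia libraries (log2 fold -1.7, SE 0.15, adjusted p = 3.6e-06). With length-scaled counts the C4b log2 fold was -1.23. C2, its partner in the convertase, was at 5.12, 4.18 and 6.46 TPM in astrocytes and 5.73, 4.02 and 5.25 TPM in microglia and was not called (log2 fold 0.10, 95% interval -0.30 to 0.49). C3 was low in both, at 0.362, 0.197 and 0.388 TPM in astrocytes and 1.56, 0.69 and 1.91 TPM in microglia (log2 fold 2.38, SE 0.28, adjusted p = 2.5e-05), and its level varied among the microglia libraries. Properdin, Cfp, which stabilises the alternative pathway convertase, was at 16.2, 16.7 and 19.7 TPM in microglia and at 5.37, 4.12 and 1.94 TPM in astrocytes, 5.04-fold apart. Of 12 receptors and regulators 8 were called higher in microglia and 1, Clu, in astrocytes. Itgam and Itgb2, the subunits of complement receptor CR3, were 309-fold and 194-fold higher in microglia, Itgam at 2.07, 2.12 and 1.7 TPM in astrocytes and at 631, 663 and 616 TPM in microglia and Itgb2 at 1.57, 1.48 and 1.13 TPM in the astrocyte libraries against 288, 288 and 268 TPM in the microglia libraries. The receptors for the C3a and C5a fragments, C3ar1 and C5ar1, were at 51, 49.9 and 50.8 TPM and 39.9, 35.7 and 43.9 TPM in microglia and at no more than 0.271 TPM in any astrocyte library. Itgb2, C3ar1 and C5ar1 were chosen after their values were seen. Clu, clusterin, a chaperone and apolipoprotein that blocks the membrane attack complex, was at 97.7, 89.2 and 100.0 TPM in microglia and at 6994, 6494 and 7042 TPM in astrocytes (log2 fold -6.21, SE 0.10, adjusted p = 1.8e-11).

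TGF-beta maintains microglial identity. Its receptors and SMAD proteins leaned to microglia, and its ligands and activating proteins did not lean to either type. Among 12 ligands and activating proteins 6 were called higher in astrocytes and 5 in microglia, beside 22% and 22.1% of all genes, with a median log2 fold of -0.10. Among 12 receptors and SMAD proteins 8 were called higher in microglia and none in astrocytes, with a median of 1.99. The ligand Tgfb1 was at 4.61, 4.02 and 3.27 TPM in astrocytes and at 258, 252 and 223 TPM in microglia (log2 fold 6.04, SE 0.12, adjusted p = 4.3e-11), and Tgfb2 was at 20.9, 18.7 and 20.9 TPM in the astrocyte libraries against 2.01, 1.5 and 1.5 TPM in the microglia libraries (log2 fold -3.56, SE 0.14, adjusted p = 6.1e-09). Dentate gyrus granule cells held more Tgfb2 than astrocytes did, 30.6 TPM. Tgfb3 was 2.09-fold higher in astrocytes, at 4.61, 4.51 and 3.9 TPM against 1.96, 2.08 and 2.46 TPM, a fold so near the limit that the call was lost under 5 of the alternative settings (log2 fold -0.99 to -0.75). Summed over the 3 ligands, most of the message in microglia was Tgfb1 and most in astrocytes was Tgfb2. Integrin alpha V beta 8 releases the active ligand from its latent complex. Its beta subunit Itgb8 was at 0.498, 0.766 and 0.527 TPM in microglia and at 40.8, 42.5 and 40.8 TPM in astrocytes (log2 fold -6.24, SE 0.12, adjusted p = 4.4e-11), and its alpha subunit Itgav, shared with other integrins, was at 66.1, 51.9 and 54.8 TPM in astrocytes and at 25, 25.8 and 22.2 TPM in microglia (log2 fold -1.3). Nrros, which holds latent TGF-beta 1 on the microglial surface, was at 4.82, 3.47 and 4 TPM in the astrocyte libraries against 52.2, 44.7 and 43.2 TPM in the microglia libraries (log2 fold 3.43, SE 0.11, adjusted p = 1.7e-09). The latent TGF-beta binding proteins, which tie the latent ligand to matrix, split: Ltbp1 and Ltbp3 were 16.5-fold and 3.26-fold higher in astrocytes and Ltbp4 was 4.15-fold higher in microglia.

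The signalling receptors were on the microglial side. Tgfbr1 was at 355, 378 and 327 TPM in microglia and at 5.63, 5.51 and 5.26 TPM in astrocytes (log2 fold 6.04, SE 0.10, adjusted p = 2e-11), and Tgfbr2, which binds the ligand first, was at 3.71, 3.21 and 3.05 TPM in astrocytes and at 108, 117 and 101 TPM in microglia (log2 fold 5.12, SE 0.10, adjusted p = 4.8e-11). The astrocyte libraries thus held both receptors at 3.05 to 5.63 TPM. The microglia identity list summed to 235.9 to 299.6 TPM in the same libraries. What part of the receptor level there came from astrocytes was not tested. The intracellular mediators differed less. Smad3 was at 17.7, 15.5 and 15.2 TPM in the astrocyte libraries against 49.2, 51 and 51.2 TPM in the microglia libraries (log2 fold 1.51), and Smad2 was at 22.5, 24.2 and 23.4 TPM in astrocytes and 32.3, 31.3 and 30.5 TPM in microglia (log2 fold 0.30, not called). The common mediator Smad4 overlapped, at 27.4, 25.6 and 30.3 TPM in astrocytes and 27.6, 27.2 and 29.8 TPM in microglia (log2 fold -0.10, 95% interval -0.27 to 0.06). The inhibitors Smad7 and Ski were 4.94-fold and 3.2-fold higher in microglia, Smad7 at 25.5, 25.6 and 24.6 TPM in microglia and at 5.14, 5.61 and 4.65 TPM in astrocytes. Eng, a coreceptor also found on endothelial cells, was at 6.46, 5.02 and 4.78 TPM in astrocytes and at 111, 97.5 and 105 TPM in microglia, 20-fold apart, while the endothelial and mural marker list was at 158 to 179 and 554 to 768 TPM.

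Other ligands and receptors were examined as pairs. Of 25 ligands 8 were called higher in astrocytes and 10 in microglia, and of 27 receptors 9 were called higher in each, beside 22% and 22.1% of all genes. In several pairs the receptor was far apart between the types while the ligand was not. Csf1r, the receptor on which microglia depend, was at 11.2, 10.4 and 8.15 TPM in the astrocyte libraries against 3854, 3888 and 3638 TPM in the microglia libraries (log2 fold 8.52, SE 0.13, adjusted p = 1.8e-11). Its ligands Csf1 and Il34 were not called: Csf1 was at 16.1, 19 and 20.2 TPM in astrocytes and 11.9, 10.1 and 12.7 TPM in microglia (log2 fold -0.82), and Il34 was at 21, 20.8 and 25 TPM in microglia and at 16.8, 20.5 and 14.2 TPM in astrocytes (log2 fold 0.37). Layer V neurons had more Il34 than either, 102 TPM. Cx3cr1, the fractalkine receptor, was at 7.26, 6.05 and 4.51 TPM in astrocytes and at 1679.5, 1674 and 1601 TPM in microglia (log2 fold 8.11, SE 0.16, adjusted p = 5.4e-11), and its ligand Cx3cl1 was at 127, 128 and 102 TPM in the astrocyte libraries against 65.2, 71.7 and 69.2 TPM in the microglia libraries, a 2.02-fold difference at the limit of the call (log2 fold -1.0 to -0.77 in the 9 alternatives that lost it), with 601 TPM in layer V neurons. Sirpa, the receptor for the signal Cd47, was at 928, 1050.3 and 939 TPM in microglia and at 391, 350.1 and 343 TPM in astrocytes (log2 fold 1.51), while Cd47 was not called (log2 fold -0.32). Cd200 was not called either (log2 fold -0.80), and its receptor Cd200r1 was at 0.198, 0.1 and 0.16 TPM in astrocytes and at 6.11, 7.26 and 6.21 TPM in microglia.

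A further pair was split with the ligand in astrocytes and the receptor in microglia. Il33, an alarmin, was at 96.3, 124 and 125 TPM in the astrocyte libraries against 2.04, 2.48 and 2.2 TPM in the microglia libraries (log2 fold -5.86, SE 0.16, adjusted p = 3.6e-10), and its receptor Il1rl1 was at 3.39, 3.88 and 3.14 TPM in microglia and at 0.102, 0.154 and 0.0383 TPM in astrocytes (log2 fold 5.72, SE 0.25, adjusted p = 1.5e-08). Il1rl1 was therefore low in microglia as well, at under 4 TPM. Apoe, the main apolipoprotein of the brain, was at 31686, 29943 and 30401 TPM in astrocytes and at 2575, 2260.3 and 2472 TPM in microglia (log2 fold -3.44, SE 0.09, adjusted p = 3.8e-10), and Trem2, a microglial receptor that binds lipoproteins, was at 3.74, 3.75 and 2.52 TPM in the astrocyte libraries against 1116, 1218 and 1149.8 TPM in the microglia libraries (log2 fold 8.05, SE 0.18, adjusted p = 9.4e-11). The Apoe level of microglia was itself above that of every neuronal type, the highest of which held 166 TPM. Osm and its receptor were arranged differently. Osm, oncostatin M, was at 4.02, 4.07 and 3.51 TPM in microglia and at 0.0577, 0.0105 and 0.0378 TPM in astrocytes (log2 fold 6.67), and its receptor Osmr was at 3.14, 3.2 and 3.72 TPM in astrocytes and 2.42, 1.92 and 2.68 TPM in microglia without being called (log2 fold -0.72). Cntfr, the receptor subunit for CNTF, was at 478, 403 and 403 TPM in astrocytes and at 24.4, 24.4 and 30.8 TPM in microglia (log2 fold -4.32, SE 0.10, adjusted p = 1.2e-10), and Cntf was at 4.15, 4.25 and 4.34 TPM in the astrocyte libraries against 0.632, 1.36 and 1.14 TPM in the microglia libraries (log2 fold -2.08), so both lay on the astrocyte side. Lif was 16.3-fold higher in astrocytes, at 2.75, 2.58 and 2.26 TPM against 0.0436, 0.129 and 0.26 TPM, and Lifr was not called (log2 fold 0.28).

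Receptors of the TAM family and their bridging ligands did not run together. Axl was at 10.9, 11.5 and 14.9 TPM in microglia and at 205, 193 and 204 TPM in astrocytes (log2 fold -4.11, SE 0.10, adjusted p = 2e-10), Mertk was at 150.1, 128 and 126 TPM in astrocytes and 194, 211 and 188 TPM in microglia (log2 fold 0.52, not called), and Tyro3 was not called (log2 fold -0.51) with 188 TPM in cerebellar granule cells. Both glial types therefore held Mertk at 126 TPM or more, whereas no neuronal type exceeded 2.52 TPM. The ligand Gas6 was at 123, 95 and 96.8 TPM in astrocytes and at 145, 157 and 159 TPM in microglia (log2 fold 0.49, not called), and the ligand Pros1 was at 22.6, 23.6 and 21.1 TPM in the astrocyte libraries against 241, 244 and 207 TPM in the microglia libraries (log2 fold 3.22, SE 0.09, adjusted p = 6.9e-10).

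Among receptors for growth factors, Fgfr1, Fgfr2, Fgfr3, Bmpr1a, Bmpr1b and Ntrk2 were called higher in astrocytes, and Igf1r differed by less than 2-fold (log2 fold 0.66). Fgfr3 was at 16.2, 16.4 and 17.2 TPM in microglia and at 561, 469.6 and 487 TPM in astrocytes (log2 fold -5.16, SE 0.08, adjusted p = 2.1e-11), and Ntrk2, the receptor for BDNF, was at 728, 668 and 748 TPM in astrocytes and at 18.2, 19.8 and 23.2 TPM in microglia (log2 fold -5.12, SE 0.09, adjusted p = 3.1e-11). Bdnf was low in both glial types, at 3.9, 4.48 and 3.38 TPM in the astrocyte libraries against 1.7, 1.76 and 1.86 TPM in the microglia libraries, and reached 43.8 TPM in dentate gyrus granule cells. Bmpr1b was at 0.952, 0.97 and 1.4 TPM in microglia and at 61.1, 61 and 58 TPM in astrocytes, 52.7-fold apart. Il18 was the one interleukin of the list besides Il33 that was higher in astrocytes, at 246, 266 and 241 TPM in astrocytes and at 76.7, 79 and 77.9 TPM in microglia (log2 fold -1.75). Il1a was at 0.216, 0.0356 and 0.0808 TPM in the astrocyte libraries against 19.3, 12.9 and 13.1 TPM in the microglia libraries (log2 fold 7.03), and Il1b was at 0.209, 0.266 and 0.0639 TPM in astrocytes and 2.73, 1.21 and 1.07 TPM in microglia (log2 fold 3.46). Tnf had 1 estimated count in the astrocyte libraries together and 56 in the microglia libraries, a ratio of 62.9 with an exact 95% counting interval of 10.8 to 2527.1. Its receptors Tnfrsf1a and Tnfrsf1b were both higher in microglia, Tnfrsf1a at 165, 164 and 151 TPM in microglia and at 37.9, 31.9 and 32.9 TPM in astrocytes and Tnfrsf1b at 0.883, 1.18 and 0.823 TPM in astrocytes and at 123, 120.3 and 114 TPM in microglia. The chemokine Ccl4 had 3 and 1110 estimated counts (ratio 415.4, exact 95% counting interval 141.8 to 2017.4) and reached 18.5, 24.5 and 24.4 TPM in microglia. Ccl3 was at 14.9, 22.9 and 20.4 TPM in microglia and had 5 estimated counts in astrocytes. Pdgfb and Cxcl12, ligands that endothelial cells also make, were 15.4-fold and 4.68-fold higher in microglia, in the libraries where the endothelial and mural markers were higher too. The part of these markers in the 2 differences was not tested.

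**Figure D4:**
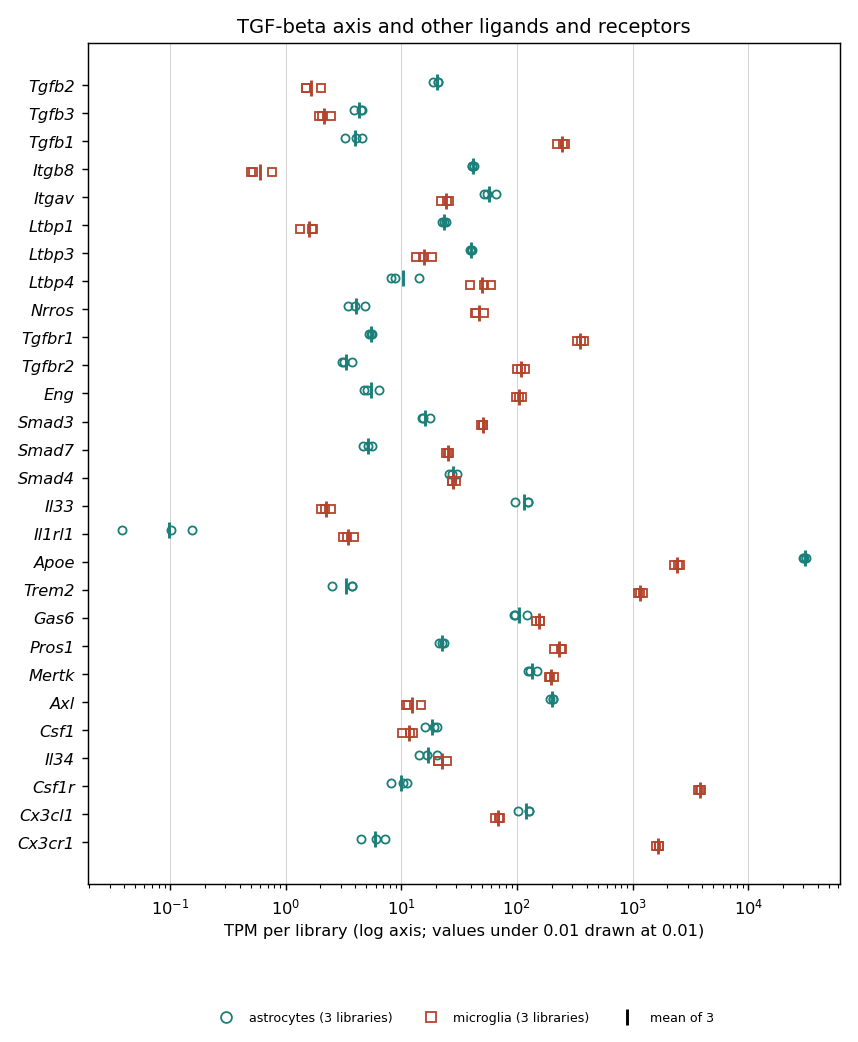
TPM of 28 genes of the TGF-beta axis and of other ligand and receptor pairs in each of the 6 libraries (x axis, log scale), with circles for astrocytes, squares for microglia and a bar at each mean. Tgfb1, Tgfbr1, Tgfbr2, Csf1r, Cx3cr1 and Trem2 lie far to the right in microglia, Itgb8, Il33, Apoe and Axl lie far to the right in astrocytes, and Smad4 overlaps.

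Lipid genes were mostly higher in astrocytes. All but 1 of 21 genes of cholesterol synthesis were called higher in astrocytes, against 22% of all genes, with a median log2 fold of -3.30. Hmgcs1, which makes the precursor HMG-CoA, was at 631, 797 and 729 TPM in the astrocyte libraries against 39.9, 45.2 and 45.6 TPM in the microglia libraries (log2 fold -4.13, SE 0.12, adjusted p = 5.4e-10). Msmo1, a sterol demethylase, was at 26.1, 28 and 26.1 TPM in microglia and at 464, 531 and 492 TPM in astrocytes (log2 fold -4.35, SE 0.10, adjusted p = 1e-10), and Srebf2, the factor that drives the pathway, was at 172, 159 and 174 TPM in astrocytes and at 29, 29 and 30.7 TPM in microglia (log2 fold -2.5, SE 0.07, adjusted p = 5.5e-10). These 3 genes were chosen after their values were seen. The exception was Ebp, a sterol isomerase, at 12.5, 14.2 and 14.7 TPM in the astrocyte libraries against 48.1, 46.8 and 47.4 TPM in the microglia libraries (log2 fold 1.72, SE 0.07, adjusted p = 1.1e-08), which was highest in cerebellar granule cells at 53.7 TPM. Of 20 genes of lipoproteins, their receptors and efflux 11 were called higher in astrocytes and 5 in microglia, the latter near the 22.1% of all genes. The fatty acid binding proteins Fabp5 and Fabp7 were 27.9-fold and 41-fold higher in astrocytes, Fabp5 at 25.6, 27.1 and 27 TPM in microglia and at 804, 841 and 788 TPM in astrocytes and Fabp7 at 812, 879 and 1019 TPM in astrocytes and at 32.1, 23.3 and 15.4 TPM in microglia. On the microglial side, Npc2 and Lipa, which release cholesterol in the lysosome, were 2.44-fold and 4.82-fold higher, Npc2 at 115, 112 and 112 TPM in the astrocyte libraries against 289.6, 294 and 282 TPM in the microglia libraries and Lipa at 64.7, 61.8 and 59.7 TPM in microglia and at 12.9, 12.2 and 12 TPM in astrocytes. Apod, a lipocalin also made by oligodendrocytes and fibroblasts, was at 109, 161 and 146 TPM in astrocytes and at 497, 322 and 597 TPM in microglia and varied among the microglia libraries. The endocytic receptor Lrp1 was not called, at 239.5, 194 and 223 TPM in astrocytes and 351, 346 and 307 TPM in microglia (log2 fold 0.33).

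Lysosomal genes were mostly higher in microglia. Of 25 hydrolases and membrane proteins 19 were called higher in microglia and 1 in astrocytes, beside 22.1% and 22% of all genes, with a median log2 fold of 3.21. Cst3, the secreted protease inhibitor cystatin C, was the most abundant, at 11369.9, 9991 and 10496 TPM in the astrocyte libraries against 49509, 55225 and 51630.1 TPM in the microglia libraries (log2 fold 2.09, SE 0.08, adjusted p = 6.8e-09). The protease Ctsd was at 7241, 7541 and 7522 TPM in microglia and at 449, 408 and 413 TPM in astrocytes (log2 fold 4.03, SE 0.08, adjusted p = 5.3e-11). The exception was the protease Ctso, at 108, 108 and 102 TPM in astrocytes and at 42.9, 46.5 and 44.8 TPM in microglia (log2 fold -1.31, SE 0.06, adjusted p = 2.5e-08). Psap, the precursor of the saposins that activate lysosomal hydrolases, was not called by its fold, at 1858, 1784 and 1861 TPM in astrocytes and 2938, 2938 and 2793 TPM in microglia (log2 fold 0.58, SE 0.08, adjusted p = 8.1e-05).

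Engulfment receptors and opsonins were divided, 9 of 17 being higher in microglia and 5 in astrocytes, beside 22.1% and 22% of all genes. Mfge8, an opsonin that binds phosphatidylserine on dying cells, was at 1572, 1428 and 1459.5 TPM in the astrocyte libraries against 41.8, 40.8 and 37.7 TPM in the microglia libraries (log2 fold -5.25, SE 0.09, adjusted p = 2.5e-11), and Megf10, an engulfment receptor of astrocytes named after its value was seen, was at 0.692, 0.86 and 1.09 TPM in microglia and at 32.3, 30.7 and 31.8 TPM in astrocytes (log2 fold -5.21, SE 0.13, adjusted p = 2.4e-10). Axl and Itgav, described above, were the others named on that side. The microglial set held Trem2 and the immunoglobulin receptor Fcgr3.

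Genes of innate sensing were nearly all higher in microglia. Of 27 sensors and adaptors 26 were tested, 25 were called higher in microglia and none in astrocytes, against 22.1% and 22% of all genes. The median log2 fold was 5.11. Unc93b1, which carries nucleic acid sensing Toll-like receptors to endosomes, was at 8.12, 6.39 and 6.22 TPM in astrocytes and at 653, 674 and 624 TPM in microglia (log2 fold 6.87, SE 0.10, adjusted p = 1.5e-11). The 1 gene not called was Tlr3, a sensor of double-stranded RNA, at 65.9, 65.6 and 70.8 TPM in astrocytes and 49.1, 50 and 48 TPM in microglia (log2 fold -0.70, 95% interval -0.83 to -0.58). Its groups did not overlap, and astrocytes were the higher. The level of Tlr3 in both glial types was above that of every neuronal type, at most 1.75 TPM. Of 18 genes of MHC and antigen processing 15 were called higher in microglia and 1 in astrocytes. B2m, the light chain of MHC class I, was at 315, 318 and 309 TPM in the astrocyte libraries against 4614, 4733 and 4950.0 TPM in the microglia libraries (log2 fold 3.86, SE 0.07, adjusted p = 3.8e-11). The heavy chains H2-D1 and H2-K1 were 13.2-fold and 3.93-fold higher in microglia, H2-K1 at 445, 421 and 511 TPM in microglia and at 110.3, 101 and 103 TPM in astrocytes. The gene on the other side was Ciita, the class II transactivator, but at 0.0818, 0.117 and 0.0917 TPM in astrocytes and 0.0281, 0.0292 and 0.0209 TPM in microglia it was near 0 in both, and with limma on log2(TPM + 1) it was not called (log2 fold -0.10).

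Genes of energy metabolism were more often higher in astrocytes. Of 21 genes of glucose uptake and glycolysis 12 were called higher in astrocytes and 3 in microglia, beside 22% and 22.1% of all genes. Gapdh was at 4525, 4321 and 4507 TPM in astrocytes and at 1967, 1920.5 and 1964 TPM in microglia (log2 fold -1.25, SE 0.07, adjusted p = 9.9e-08), Eno1 was at 959, 941 and 990.0 TPM in the astrocyte libraries against 343, 341 and 344 TPM in the microglia libraries (log2 fold -1.57, SE 0.07, adjusted p = 2.1e-08) and Tpi1 was at 229, 232 and 254 TPM in microglia and at 644, 629 and 601 TPM in astrocytes (log2 fold -1.48, SE 0.06, adjusted p = 9.9e-09). For Gapdh and Tpi1 a neuronal type was higher than astrocytes, inhibitory interneurons at 5633 and 1214 TPM. Hexose uptake and phosphorylation included genes higher in microglia. Slc2a5, a hexose transporter that marks microglia, was at 0.779, 0.358 and 0.337 TPM in astrocytes and at 138, 143 and 136 TPM in microglia (log2 fold 8.36), and the hexokinase Hk2 was at 1.63, 1.48 and 1.2 TPM in the astrocyte libraries against 117, 112 and 108 TPM in the microglia libraries (log2 fold 6.28). A further hexokinase, Hk3, was at 59.8, 58.5 and 55.3 TPM in microglia and at 0.384, 0.304 and 0.187 TPM in astrocytes (log2 fold 7.59). Of 13 genes of lactate and glycogen 8 were higher in astrocytes and 2 in microglia, and the lactate transporter Slc16a3 was at 1.13, 1.07 and 1.43 TPM in astrocytes and at 20.3, 20.1 and 19 TPM in microglia (log2 fold 4.32). Ldhb was not called, at 1698, 1522 and 1664 TPM in the astrocyte libraries against 1200.4, 1218 and 1159 TPM in the microglia libraries (log2 fold -0.53). Of 24 genes of fatty acid oxidation and ketone metabolism 16 were higher in astrocytes and 1 in microglia. Hadhb, a subunit of the mitochondrial trifunctional protein, was at 76.9, 79.8 and 80 TPM in microglia and at 327, 312 and 313 TPM in astrocytes (log2 fold -2.12, SE 0.07, adjusted p = 1.2e-09). The exception was Acads, the dehydrogenase for short-chain fatty acids, at 37.8, 36.4 and 34.2 TPM in astrocytes and at 83.8, 84.6 and 78.3 TPM in microglia (log2 fold 1.11, SE 0.07, adjusted p = 1.5e-07). Oxct1, which activates ketone bodies, missed the call narrowly at a log2 fold of -0.97.

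The listed signalling and matrix genes lay mostly on the astrocyte side. Of 27 genes of Notch, hedgehog and FGF signalling 19 were called higher in astrocytes and 3 in microglia, beside 22% and 22.1% of all genes. Hes5, a target of Notch, was at 129, 119 and 121 TPM in the astrocyte libraries against 1.7, 3.88 and 3.49 TPM in the microglia libraries (log2 fold -5.47, SE 0.18, adjusted p = 1.7e-09), and Fgf1 was at 6.76, 5.9 and 5.95 TPM in microglia and at 174, 167 and 175 TPM in astrocytes (log2 fold -5.03, SE 0.09, adjusted p = 2.5e-11). Smo, the hedgehog signal transducer, was not called (log2 fold -0.45). The Notch ligands Jag2 and Dll4 were 3.64-fold and 3.8-fold higher in microglia, Jag2 at 7.93, 6.83 and 5.77 TPM in astrocytes and at 26.5, 20.8 and 25.2 TPM in microglia and Dll4 at 0.912, 0.638 and 0.629 TPM in the astrocyte libraries against 3.3, 2.04 and 2.83 TPM in the microglia libraries, where the endothelial and mural markers were higher as well. Of 23 secreted and surface factors that organise synapses and matrix 19 were called higher in astrocytes and 2 in microglia, with a median log2 fold of -4.06. Sparcl1, or hevin, which promotes synapse formation, was at 199, 178 and 215 TPM in microglia and at 8255, 7679.9 and 8288 TPM in astrocytes (log2 fold -5.4, SE 0.10, adjusted p = 4.1e-11). Its relative Sparc, which opposes hevin, ran the other way, at 595, 531 and 529 TPM in astrocytes and at 5465, 5721 and 5726 TPM in microglia (log2 fold 3.26, SE 0.08, adjusted p = 1.5e-10). The brain proteoglycans Bcan and Cspg5 were 29.6-fold and 33.2-fold higher in astrocytes, Bcan at 1275, 1159 and 1233 TPM in the astrocyte libraries against 58.5, 58.1 and 57.5 TPM in the microglia libraries. Sparc is also a protein of bone and vessels, and both marker lists were higher in microglia. The part of these markers in the Sparc difference was not tested.

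Lists of general cell function served for comparison, beside the 44.1% of all genes called in either direction. Of 20 cytosolic aminoacyl-tRNA synthetases 1 was called, Dars, at 43.1, 44.1 and 44.1 TPM in microglia and at 98.4, 102 and 99.4 TPM in astrocytes (log2 fold -1.26, SE 0.06, adjusted p = 3.6e-08), and 19 were not. Of these Nars had the highest level and missed the call narrowly (log2 fold 0.96). Maf1, a repressor of RNA polymerase III, was not called (log2 fold 0.49). Of 13 mitochondrially encoded subunits 3 were called higher in astrocytes, close to the 22% of all genes, among them mt-Atp6, at 3755, 3230.3 and 2589 TPM in astrocytes and at 1386, 1649.7 and 1974 TPM in microglia (log2 fold -1.01, SE 0.13, adjusted p = 5.2e-05). Its fold lay at the limit of the call, and 9 alternative settings lost it. Of 14 immediate early genes 1 was higher in astrocytes, 4 in microglia and 9 were not called, so no more of them were called than of all genes (44.1% in either direction). Fos was at 13.8, 19.7 and 30.8 TPM in astrocytes and 7.85, 8.82 and 7.46 TPM in microglia (log2 fold -1.62), and Junb was at 19.5, 24.3 and 28.6 TPM in the astrocyte libraries against 97.3, 90.3 and 84.6 TPM in the microglia libraries (log2 fold 1.86). Fos differed more among the astrocyte libraries than among the microglia libraries.

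**Figure D5:**
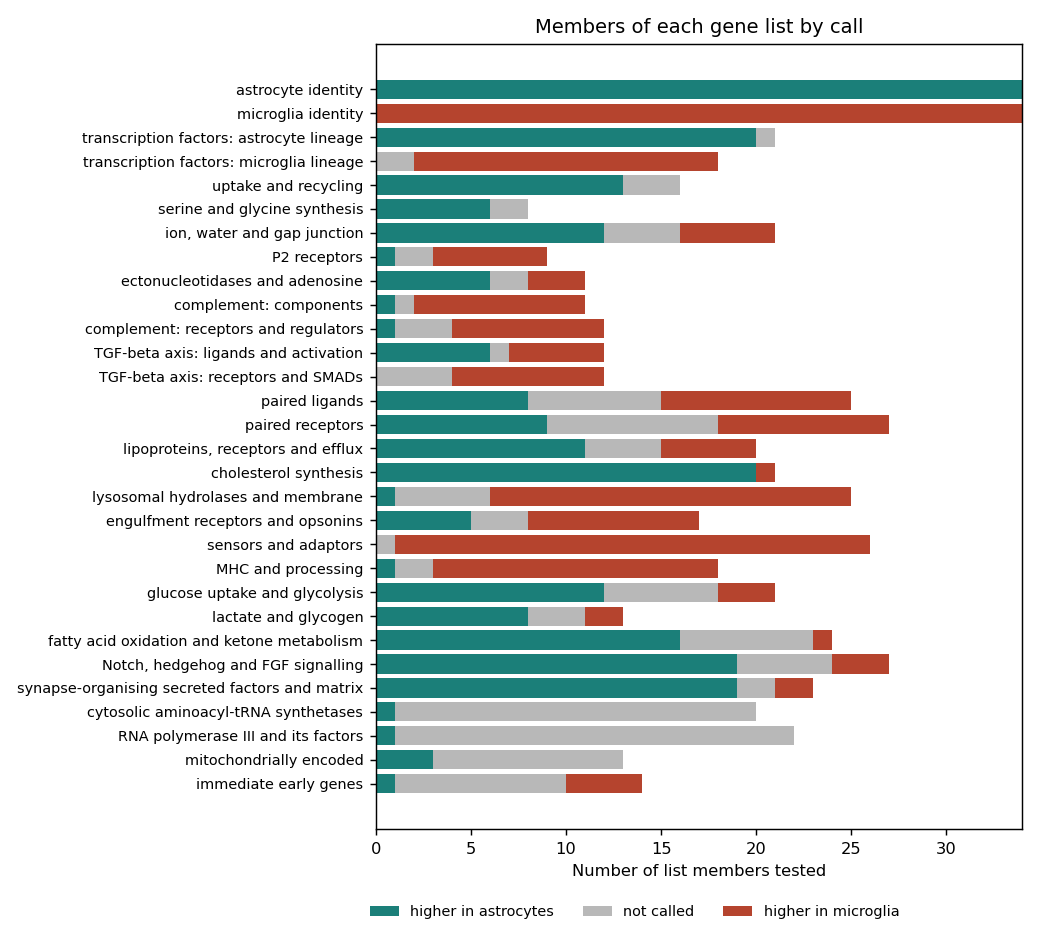
Number of tested members of each gene list (x axis) that were called higher in astrocytes, called higher in microglia or not called. The 2 identity lists are each of 1 colour, the aminoacyl-tRNA synthetases are nearly all uncalled, and the TGF-beta ligands and paired ligands are divided.

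Some genes were read as different transcripts in the 2 types. Of 4534 genes with at least 20 TPM in all 6 libraries, 208 (4.59%) had a leading transcript that differed between the types in every library, and in 9 of these the shares differed by at least 50 percentage points. The shares are the estimates of kallisto, which divides reads among overlapping transcripts, and no test was made. The 9 genes were Rcan1, Cndp2, Myl6, Capzb, Nxt2, Ntsr2, Psap, Epb41l2 and Med22, and with the second sequencing of astrocyte replicate 2 in place of the first there were 8. Rcan1, an inhibitor of calcineurin, was read as Rcan1-202 for 93.6%, 91.3% and 94.6% of its TPM in astrocytes and for 27.2%, 19.3% and 17.7% in microglia, where Rcan1-201 held 72.4%, 79.3% and 81.8%. Psap was read as Psap-205 for 80.1%, 81.8% and 82.5% in astrocytes and 4.26%, 4.17% and 4.11% in microglia, where Psap-202 held 61.3%, 65.9% and 63.1%. Psap differed little in its summed level, so its transcripts differed far more than the gene did. Myl6, a myosin light chain, was read as Myl6-206 for 72.5%, 70.2% and 72.9% in astrocytes and as Myl6-201 for 85.3%, 86.7% and 82.3% in microglia. Capzb, the beta subunit of the actin capping protein, was read as Capzb-203 for 74.7%, 76.7% and 79.6% in astrocytes and as Capzb-204 for 77.1%, 77.0% and 75.7% in microglia. Ntsr2, an astrocyte receptor for neurotensin, was read in the microglia libraries mainly as Ntsr2-205 (61.4%, 68.1% and 64.7%), an annotated retained intron. In the astrocyte libraries it was read as the coding Ntsr2-201 (85.3%, 85.5% and 86.0%). The astrocyte identity list summed to 2974.7 to 3291.2 TPM in the microglia libraries. What part of the Ntsr2 reads there came from microglia was not tested.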

How the data were processed

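Ribosome-bound poly(A) RNA was measured in 22 libraries, of which 6 were compared and 1 served as a check. Reads had been trimmed by cutadapt 3.5 and assigned to transcripts by kallisto 0.46.2, per the labels, against GENCODE mouse transcripts (GRCm38), and the authors deposited estimated counts and TPM per transcript for each library. Here the estimated counts were summed per gene, rounded, and tested with edgeR 4.0.16 (R 4.3.3; TMM factors, quasi-likelihood F test) keeping genes that reached 5 counts in 3 of the 6 libraries or more (a share of 47%). TPM was summed per gene for the levels. The SE is the absolute log2 fold divided by the square root of F. DESeq2 1.42.0, limma 3.58.1 on log2(TPM + 1) and log2(TPM + 0.1), other scalings and filters, leaving out each library, a replicate block and fits with the batch 2 libraries were tried as alternatives. The study's own test, sleuth, was not run. No library of unselected cortex RNA was used here.

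The genes named were chosen by rule: the Cre driver genes, the 10 largest folds in each direction among abundant protein-coding calls, for each list up to 4 called members per direction with the highest TPM and the most abundant member not called, and any member of the ligand, complement and TGF-beta lists. Some genes that this rule names are not reported here. The comparison and the lists were chosen with earlier results of these data known. Intervals on counts cover counting error only. Replicate numbers were not used as a pairing in the main fit, although they went with sex in both groups. Deviations from group means of same-numbered libraries correlated at 0.0223, 0.0038 and -0.0377. With so few libraries these values cannot exclude a pairing. The labelled sexes of the 7 glial libraries matched their sex-linked transcripts, while 1 layer V library, used only in the fit of all 22 libraries, did not match its label.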

Additional observations from a re-analysis of the deposited data

How the results depend on the processing

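With DESeq2, other scalings, other filters or the batch 2 libraries, counts of calls stayed between 3489 and 5101 for astrocytes and between 3393 and 5267 for microglia, within 1.5 times the 4764 and 4801 reported. Limma on log2(TPM + 1) called 2964 genes higher in astrocytes and 2970 genes higher in microglia, adjusted p alone 7993 and 7785, and a limit of 4-fold 2185 and 2322. Leaving out 1 library at a time gave 4580 to 4801 genes higher in astrocytes and 4485 to 4904 higher in microglia. The replicate block gave 4672 and 4572. Scaling by library size alone moved the median log2 fold to 0.15 and the share of calls higher in microglia from 50.2% to 55.1%, and upper-quartile scaling moved the median to 0.10.

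With the batch 2 libraries alone, in which the single astrocyte library is assumed to vary like the microglia libraries, 88.5% of the astrocyte calls and 81.6% of the microglia calls were made again, and 31 calls had the opposite sign. With all 22 libraries and a batch term, 96.0% and 90.5% were made again. At a share difference of 30 points, 36 genes differed in leading transcript in place of 9.

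Of 3696 pairs of a named gene and a setting, 48 lost a call (in Bdnf, C3, Ciita, Cx3cl1, Enpp2, Lyve1, Med22, Ngp, Rcan1, Tgfb3, Tmem212, Tnf and mt-Atp6), 25 gained one (in Nars, Nxt2, Oxct1, Sall3 and Ttr) and 14 turned in sign, all but that of Lyve1 in genes that were not called. The Lyve1 log2 fold turned to -0.59 with the batch 2 libraries only. The C2 log2 fold turned to -0.15 with length-scaled counts, -0.05 and -0.06 with limma at pseudocounts of 1 and 0.1, and -0.05 without astrocyte replicate 1, and leaving out single libraries gave -0.05 to 0.24. The Smad4 log2 fold turned to 0.01 with library size only, 0.00 with at least 50 counts, and 0.02 with limma at either pseudocount. The Ttr log2 fold turned to 0.12 and 0.21 with limma, 4.26 with the batch 2 libraries only, 0.47 with the replicate block and 3.25 without astrocyte replicate 1, and leaving out single libraries gave -4.33 to 3.25. The cause of these changes was not tested. Of 296 list counts 292 stayed within 1.5 times.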
